A study of Rattus norvegicus with 20 samples.

Results

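Transcripts of 6 genes of the circadian clock, Arntl, Nr1d2, Cry2, Bhlhe41, Dbp and Wee1, were followed in the choroid plexus of 20 female Zucker rats of 16 weeks. The genes were chosen by symbol, with earlier results of these data known. All 6 were found among the 32883 Ensembl genes measured in each rat and passed the filter on low values in every comparison. The choroid plexus is the tissue in the brain ventricles that secretes cerebrospinal fluid, here taken from the lateral and the fourth ventricles, with 1 RNA library per rat. The untreated cohort held 6 lean rats (+/fa, with 1 intact copy of the leptin receptor gene) and 6 obese rats (fa/fa, without a working leptin receptor). The injected cohort held 4 lean rats given the sesame oil vehicle, called lean control, and 4 obese rats given testosterone in that oil, called obese + TT. All rats ate normal chow, and genotype and body weight cannot be told apart. Obesity and testosterone cannot be told apart within the injected cohort either, because no obese rats with vehicle alone were among the samples. The estrous cycle was not controlled, and the clock time at which each rat was killed is not given in the sources used here. Its part in the values below was not tested.

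Most cells of the body keep time with a loop of transcription. The protein of Arntl, better known as BMAL1, pairs with CLOCK and switches on genes through E-box elements, among them the genes of its own repressors. The cryptochromes, such as the product of Cry2, and BHLHE41 (DEC2) hold that activation back, and REV-ERB beta, the product of Nr1d2, represses Arntl. Dbp encodes a transcription factor of the PAR bZIP family that is switched on by the BMAL1 complex and swings widely over the day, and Wee1 encodes a kinase that holds cells before mitosis and is an output of the same loop. In a running clock Arntl is therefore out of phase with Dbp, Nr1d2 and Wee1. The choroid plexus is known as a tissue with a strong clock of its own.

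The DNA next to the start sites was searched for the letters of elements of this loop. RefSeq (build GRCr8) gave a promoter for 5 of the 6 genes and none for Wee1. The 250 bases before the start were searched on both strands for the E-box CACGTG, for AGGTCA, the core of the elements bound by REV-ERB and ROR receptors, and for the D-box letters TTATGTAA or TTACGTAA, which DBP binds. The motifs found did not overlap each other. The promoters of the activator, of its repressor and of the E-box repressor are shown, because each holds 1 match, printed in capitals.
Arntl (Bmal1 in RefSeq), chr1:176766078-176766327, forward strand, with AGGTCA 15 to 10 bases before the start: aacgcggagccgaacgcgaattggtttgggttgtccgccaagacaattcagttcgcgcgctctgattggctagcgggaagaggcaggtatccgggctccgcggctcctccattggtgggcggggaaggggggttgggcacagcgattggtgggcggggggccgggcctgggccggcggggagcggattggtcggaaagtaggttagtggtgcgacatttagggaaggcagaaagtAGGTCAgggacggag
Nr1d2, chr15:9954784-9955033, forward strand, with AGGTCA 187 to 182 bases before the start: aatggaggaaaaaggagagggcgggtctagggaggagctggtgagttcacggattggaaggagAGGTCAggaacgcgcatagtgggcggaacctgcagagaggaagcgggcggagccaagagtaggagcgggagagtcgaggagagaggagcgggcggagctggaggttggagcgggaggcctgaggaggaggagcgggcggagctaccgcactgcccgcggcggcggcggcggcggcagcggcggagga
Bhlhe41, chr4:180569356-180569605, reverse strand, with CACGTG 48 to 43 bases before the start: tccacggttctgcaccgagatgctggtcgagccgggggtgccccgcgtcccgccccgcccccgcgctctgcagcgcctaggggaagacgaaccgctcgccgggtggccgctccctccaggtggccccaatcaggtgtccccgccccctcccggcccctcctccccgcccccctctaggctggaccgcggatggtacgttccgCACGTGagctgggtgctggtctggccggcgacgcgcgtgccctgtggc
AGGTCA stood in 14.1% of 33469 promoter windows of this length, CACGTG in 5.59% and a D-box in 0.932%, so a match describes the letters and is not a proven site. The windows of Cry2 and Dbp held none of these letters.

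Abundance was read as TPM (transcript abundance scaled to a fixed total per library and corrected for gene length, so that genes can be compared). Dbp was the most abundant of the 6 genes, with a mean of 103.9 TPM over the 20 rats and a range of 49.93 to 174.68, at the 97.3 percentile of all genes in the files. Nr1d2 followed with 38.2 TPM (23.72 to 58.40), then Cry2 with 19.99 TPM (14.45 to 25.69), Bhlhe41 with 16.1 TPM (9.06 to 26.90) and Wee1 with 11.9 TPM (7.87 to 16.84). Arntl was the least abundant at 1.90 TPM (0.79 to 5.02), below every value of the other 5 genes. Neighbours in this order from Dbp to Wee1 overlapped in their ranges, Dbp and Nr1d2 only between 49.93 and 58.40 TPM. Arntl varied most between rats of a group, with a coefficient of variation of 21.3 to 46.3%. Nr1d2 and Cry2 varied less, with 3.96 to 16.4% and 3.30 to 16.0%.

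Markers of the labelled tissue were present, since all 10 epithelial markers of the choroid plexus had an identifier, none was at 0, and transthyretin (Ttr) alone took 31.2 to 39.3% of the TPM in the untreated and 25.8 to 30.5% in the injected rats. The other epithelial markers all went the other way, with higher mean TPM in injected than in untreated rats of the same genotype. In lean control against lean rats their log2 differences ran from 0.13 (Aqp1) to 1.12 (Kl), where the median of all genes was 0.24. Summed TPM of the red cell markers with an identifier (4 of 6, none at 0) ranged from 3105 to 5471 in lean, 4052 to 7019 in obese, 2168 to 5768 in lean control and 4799 to 8388 in obese + TT rats. The part of blood in the clock genes was not tested. In whole tissue, fewer cells of a type and less RNA per cell cannot be told apart.

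**Figure D1:**
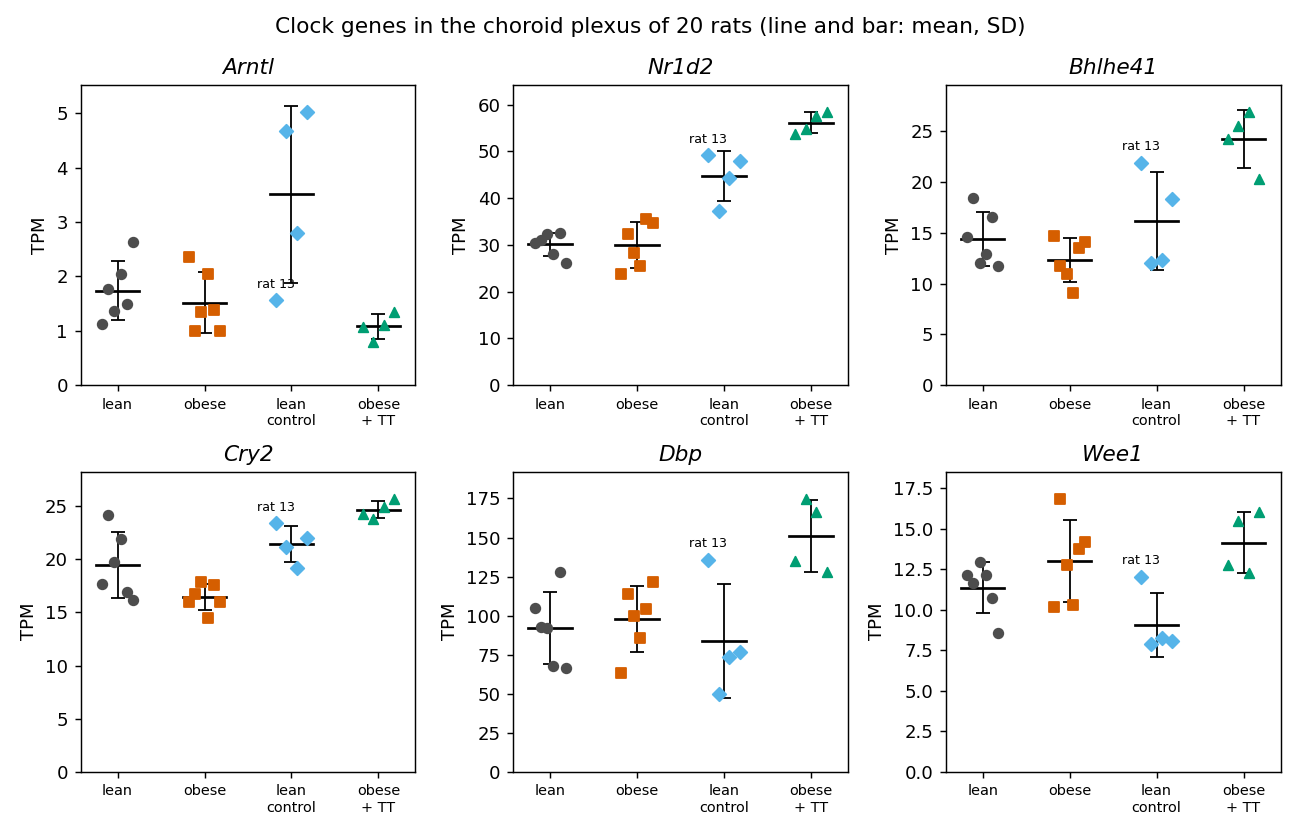
Abundance (TPM, vertical axes from 0) of the 6 clock genes in each of 20 rats by group. Each symbol is 1 rat, with the group mean as a line and the SD as a bar (n = 6, 6, 4 and 4). The obese + TT rats lie below all lean control rats in Arntl and above all of them in Nr1d2, Cry2 and Wee1, and the lean and obese groups overlap in all 6 genes.

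Whether obesity alone moved the clock genes was asked in the untreated rats. None of the 6 genes passed the test across all genes there, and every lean group overlapped its obese group. Cry2 was nearest to a difference, with a mean TPM in obese rats of 0.846 times that in lean rats.

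Arntl, the activator, read 1.13 TPM in the lowest, 1.63 at the median and 2.64 in the highest lean rat, against 0.99, 1.365 and 2.35 TPM in obese rats. The ranges nearly coincided, and the log2 fold change of obese over lean was -0.20 (95% confidence interval -0.71 to 0.31, exact permutation test p = 0.455).

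Nr1d2, its repressor, read 26.11, 30.745 and 32.45 TPM (lowest, median, highest) in lean rats and 23.72, 30.36 and 35.45 TPM in obese rats. The means were 30.1 ± 2.52 and 30.005 ± 4.92 TPM (SD, n = 6), with obese rats on both sides of the lean ones, and the log2 fold change was -0.017 (-0.24 to 0.20, exact permutation p = 0.877).

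Cry2, the cryptochrome, read 16.19, 18.715 and 24.15 TPM in lean rats and 14.45, 16.375 and 17.87 TPM in obese rats. Of the 6 obese rats, 3 lay below every lean rat, and the log2 fold change was -0.23 (-0.44 to -0.017). Its exact two-sided permutation p was 0.0476, and the p of limma was 0.0359 before and 0.484 after Benjamini-Hochberg adjustment over 15176 genes. The smallest p that 6 against 6 rats allow in the exact test is 0.00216.

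Bhlhe41, the E-box repressor, read 11.77, 13.755 and 18.40 TPM (lean rats) against 9.06, 12.62 and 14.68 TPM (obese rats), a log2 fold change of -0.22 (-0.51 to 0.07, exact permutation p = 0.175). Dbp, the output factor, read 66.49, 92.46 and 127.61 TPM (lean rats) against 63.14, 101.925 and 121.22 TPM (obese rats), a log2 fold change of 0.10 (-0.28 to 0.47, exact permutation p = 0.634). Wee1, the kinase, read 8.56, 11.895 and 12.96 TPM (lean rats) against 10.17, 13.27 and 16.84 TPM (obese rats), a log2 fold change of 0.18 (-0.10 to 0.46, exact permutation p = 0.2403). The intervals of these 3 genes all included 0, so that with 6 rats a group the values are compatible with no change and with changes within these intervals.

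At an unadjusted p under 0.05, limma named 1 of the 6 genes, Cry2, where 9.66% of all genes tested were named (5.91% as higher and 3.75% as lower). With adjustment 0 of the 6 were called, as were 0% of all genes. The study's own test on read counts called changed genes in this comparison, so this 0% holds for limma on TPM. Non-overlapping groups were found for 0 of the 6 genes and for 0.54% of all genes.

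Whether the clock genes differed between obese rats given testosterone and lean rats given vehicle was asked in the injected cohort. Here the activator was lower and the other 5 genes were higher in obese + TT rats, with a mean of Arntl 0.307 times and a mean of Dbp 1.80 times that of lean control rats. At an unadjusted p under 0.05, limma named 6 of the 6 genes, where 7.43% of 15259 genes were named (4.25% as higher and 3.19% as lower). With Benjamini-Hochberg adjustment over all genes 0 of the 6 were called, as were 0% of all genes. The groups did not overlap in 4 of the 6 genes, 3 higher and 1 lower, and in 4.02% of all genes (2.37% higher and 1.66% lower). The study's own test on read counts called changed genes here as well, so the 0% holds for limma on TPM. Its lists of changed genes, made from these libraries, hold 5 of the 6 (not Dbp), for either cohort or both. These directions are therefore not independent evidence. Markers of mural cells (3 of 5 with an identifier, none at 0) moved with the same groups, with a summed TPM of 13.7 to 21.7 in lean control and 9.70 to 11.7 in obese + TT rats, without overlap. Myh11 and Tagln, which encode contractile proteins of smooth muscle, were at -0.74 and -0.79 on the log2 scale and Rgs5 at -0.13 (adjusted p of limma 0.375, 0.510 and 0.970), and their part in the clock genes was not tested.

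Arntl, the activator, read 1.56, 4.67, 2.80 and 5.02 TPM in lean control rats 13, 14, 15 and 16, and 1.06, 0.79, 1.11 and 1.35 TPM in obese + TT rats 17, 18, 19 and 20. Every obese + TT rat was below every lean control rat, although rat 13 came close to the highest of them. The means were 3.51 ± 1.63 and 1.08 ± 0.23 TPM (SD, n = 4), a log2 fold change of -1.51 (standard error 0.34, 95% confidence interval -2.28 to -0.73). The exact two-sided permutation p was 0.0286, the smallest that 4 against 4 rats allow, and the adjusted p of limma was 0.385.

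Nr1d2, the repressor of Arntl, read 49.18, 37.24, 44.40 and 47.94 TPM in the lean control rats and 53.69, 54.90, 57.63 and 58.40 TPM in the obese + TT rats. The groups did not overlap. The log2 fold change was 0.34 (standard error 0.09, exact permutation p = 0.0286, adjusted p of limma 0.492).

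Cry2 read 23.39, 21.19, 19.23 and 21.98 TPM in the lean control rats and 24.28, 23.81, 24.92 and 25.69 TPM in the obese + TT rats. The groups did not overlap, but rat 13 was just below the lowest obese + TT rat, and the log2 fold change of 0.20 (standard error 0.07) was the smallest of the 6. Its exact permutation p was 0.0286 and its adjusted p in limma 0.594.

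Bhlhe41 read 21.91, 12.00, 12.28 and 18.33 TPM in the lean control rats and 24.23, 25.59, 26.90 and 20.30 TPM in the obese + TT rats. Rat 13 was above rat 20, so 3 of the 4 obese + TT rats exceeded all lean control rats. The log2 fold change was 0.63 (standard error 0.19, exact permutation p = 0.0571, adjusted p of limma 0.559).

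Dbp, the output factor, read 135.77, 49.93, 73.47 and 76.91 TPM in the lean control rats and 135.04, 174.68, 166.06 and 128.11 TPM in the obese + TT rats. Rat 13 reached the obese + TT range, and the other 3 lean control rats were all below it. The log2 fold change was 0.93 (standard error 0.25, exact permutation p = 0.0857, adjusted p of limma 0.510).

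Wee1, the kinase, read 12.04, 7.87, 8.24 and 8.06 TPM in the lean control rats and 12.79, 15.47, 12.30 and 16.01 TPM in the obese + TT rats. The groups did not overlap, with rat 13 just below the lowest obese + TT rat and the other 3 lean control rats close together. The log2 fold change was 0.65 (standard error 0.15, exact permutation p = 0.0286, adjusted p of limma 0.385).

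Lean control rat 13 stood next to the obese + TT rats in every one of the 6 genes. Ranked from the highest value among the 8 injected rats, it was the 4th in Arntl, directly above the 4 obese + TT rats. In Nr1d2, Cry2 and Wee1 it was the 5th, directly below them, in Bhlhe41 the 4th and in Dbp the 3rd. It also had the highest summed TPM of red cell markers among the lean control rats, 5768. It was the highest of them in Hba-a1, Hba-a2 and Slc4a1 but not in Hbb, where rat 15 had 1470.44 TPM against 1358.88 TPM in rat 13. Among the cue genes listed below, it was the highest lean control rat in Cirbp (29.03 TPM), Rbm3 (93.65 TPM) and Cdc25b (1.72 TPM). It was the lowest in Hsp90aa1 (541.11 TPM), Hsph1 (63.07 TPM) and Cdkn1a (131.30 TPM). In Sgk1, Mt1, Mt2A, Hspa8 and Dnajb1 it lay between the others. What sets rat 13 apart was not tested. Without rat 13 the log2 fold changes grew to -1.83 for Arntl, 1.19 for Dbp and 0.80 for Wee1, and these 3 genes reached an adjusted p of 0.0485 in limma, when 25 genes in all were called. Leaving out the rat nearest the other group enlarges a difference in any case. Rat 13 was singled out by these same values, so this growth is not independent evidence. Leaving out any 1 of the 8 rats kept the direction of all 6 genes. The log2 fold change of Arntl stayed between -1.83 and -1.29 and that of Dbp between 0.71 and 1.19.

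**Figure D2:**
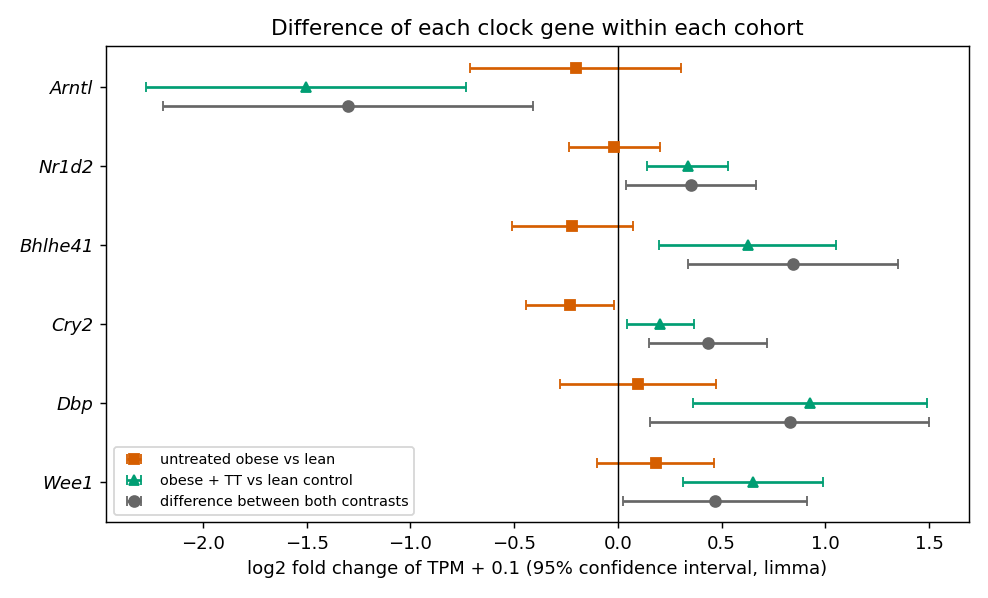
Log2 fold change of TPM + 0.1 for each clock gene (horizontal axis) with its 95% confidence interval from limma, for untreated obese over lean rats, for obese + TT over lean control rats, and for the second minus the first. In the injected cohort every interval lies on 1 side of 0, with Arntl at -1.51 and Dbp at 0.93, while in the untreated cohort only that of Cry2 leaves out 0.

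Whether the contrasts of both cohorts differed was tested in a fit of all 20 rats. The difference of log2 fold changes, injected minus untreated, was -1.30 for Arntl (standard error 0.43), 0.84 for Bhlhe41 (0.24), 0.83 for Dbp (0.32), 0.47 for Wee1 (0.21), 0.43 for Cry2 (0.14) and 0.35 for Nr1d2 (0.15). At an unadjusted p under 0.05 limma named 6 of the 6 genes, 5 with a positive and 1 with a negative difference, where 8.36% of 15406 genes were named (3.79% and 4.57%). With adjustment over all genes 0 of the 6 were called (adjusted p 0.357 to 0.574), as were 0% of all genes. The injected contrast is part of this difference. The study's lists of changed genes from these libraries, for either cohort or both, hold 5 of the 6 (not Dbp). The counts and signs of this difference are therefore not independent evidence. Cry2 and Bhlhe41 had opposite signs in the cohorts, lower in mean TPM in untreated obese rats and higher in obese + TT rats, as had Nr1d2, whose untreated value was close to 0. Testosterone, injection and cohort cannot be told apart in this difference.

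Whether the 6 genes kept a phase relation within rats was asked of the deviations of log2(TPM + 0.1) from the mean of each group, over 20 rats. Rats with more Arntl than their group tended to have less Dbp, Wee1 and Nr1d2, and these 3 tended to move together. The obese + TT group was an exception in part, since rat 20 had the most Arntl of its 4 rats (1.35 TPM) and also the most Nr1d2 (58.40 TPM) and Wee1 (16.01 TPM). Of the 15 pairs of genes, 6 passed a permutation test (100000 permutations within groups, two-sided, Benjamini-Hochberg adjustment over the 15 pairs), namely the 6 pairs among these 4 genes. The 9 pairs with Cry2 or Bhlhe41 did not pass. Beside these pairs stands the likeness of each gene to 12093 others with a mean of at least 1 TPM. The median absolute r was 0.337 for Nr1d2, 0.276 for Bhlhe41, 0.231 for Dbp, 0.188 for Cry2 and 0.186 for Arntl and Wee1. Of those genes, 5.34% had a larger absolute r with Nr1d2 than Arntl had, 2.89% than Wee1 had and 0.843% than Dbp had. The part of variation shared by whole libraries in the pairs was not tested.

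The closest opposition was between Arntl and Dbp, with Pearson r = -0.85 (permutation p = 1.1e-04, adjusted p 8.2e-04) and Spearman rho = -0.83. Without the 2 rats farthest from the median of Arntl, r was -0.75. In the untreated cohort r was -0.86 (12 rats, exact permutation p = 7e-04), and in the injected cohort -0.83 (8 rats, exact permutation p = 0.0538). Among single rats, lean rat 6 had the most Arntl of the untreated cohort, 2.64 TPM, with 66.49 TPM of Dbp, while obese rat 12 had 0.99 and 121.22 TPM. In the injected cohort lean control rat 14 had 4.67 TPM of Arntl and 49.93 TPM of Dbp, while obese + TT rat 18 had 0.79 and 174.68 TPM.

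Arntl and Wee1 followed, with r = -0.79 (adjusted permutation p = 0.00255, rho = -0.75), -0.86 in the untreated and -0.71 in the injected cohort. Without the 2 rats farthest in Arntl, r was -0.69. Arntl and its repressor Nr1d2 had r = -0.65 (adjusted permutation p = 0.0278, rho = -0.60), -0.83 in the untreated and -0.39 in the injected cohort. The adjusted p of this pair rose to 0.0528 with Spearman's rho, so that it passed with Pearson's r only.

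Nr1d2 and Dbp, both driven by the BMAL1 complex, moved in the same direction (r = 0.77, adjusted permutation p = 8.2e-04, rho = 0.76), with 0.82 in the untreated and 0.76 in the injected rats (exact permutation p = 0.182). In the injected groups of 4 rats, r was 0.86 in lean control but -0.13 in obese + TT rats. For Dbp with Wee1 these values were 0.91 and -0.16, and for Arntl with Wee1 -0.91 and -0.025. Arntl with Dbp kept its sign, at -0.84 and -0.77. Nr1d2 and Wee1 had r = 0.69 (adjusted permutation p = 0.0198), and Dbp and Wee1 had r = 0.63 (adjusted permutation p = 0.0278). The pair of Dbp and Wee1 no longer passed after rescaling of the libraries by their median ratio (r = 0.56, adjusted permutation p = 0.0832). In the untreated rats alone 5 pairs passed, all of the 6 but Dbp and Wee1.

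**Figure D3:**
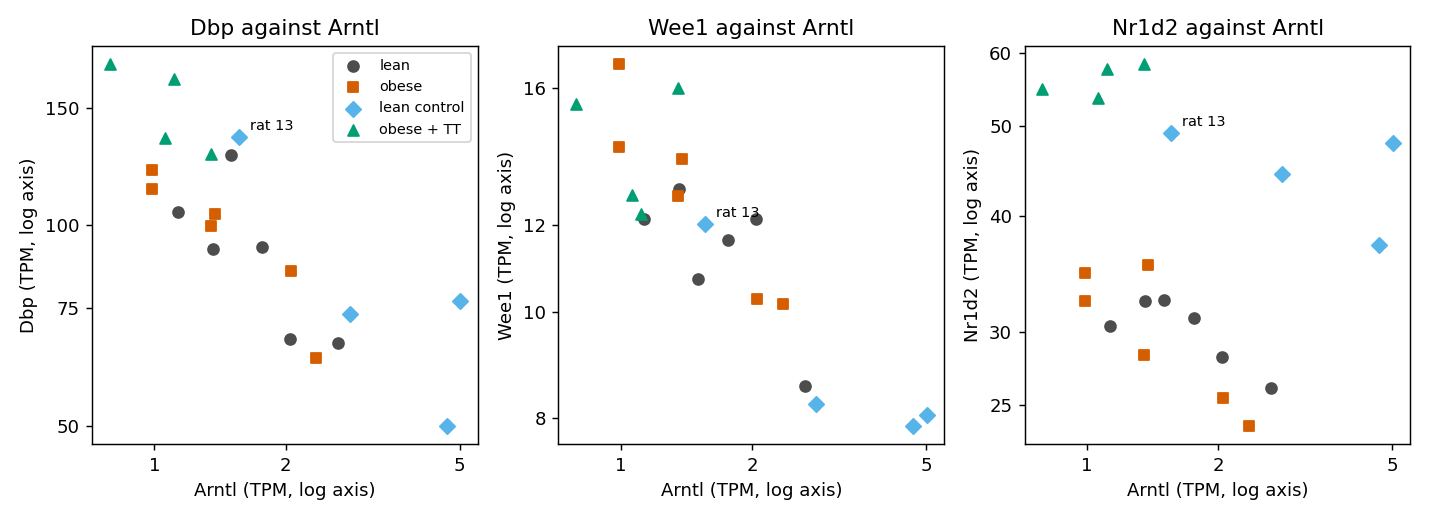
TPM of Dbp, Wee1 and Nr1d2 (vertical log axes) against TPM of Arntl (horizontal log axis), with 1 symbol per rat and a symbol for each of the 4 groups. Dbp and Wee1 tend to fall as Arntl rises in both cohorts, and the values plotted include the differences between groups. With group means removed, the exact permutation p in the injected cohort was 0.0538 for Dbp and 0.104 for Wee1. Nr1d2 is higher in all 8 injected rats (37.24 to 58.40 TPM) than in the 12 untreated rats (23.72 to 35.45 TPM). Of all genes, 44.8% did not overlap between lean control and lean rats, and 45.8% between obese + TT and obese rats.

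Cry2 took little part in this opposition. Its r was -0.14 with Arntl, 0.10 with Dbp and 0.31 with Nr1d2, and the first 2 of these values changed sign when libraries were rescaled by their median ratio. With Wee1 it was 0.50 (permutation p = 0.0263, adjusted 0.0563). Bhlhe41 had r = -0.37 with Arntl and 0.57 with Dbp (permutation p = 0.0352, adjusted 0.0661). Bhlhe41 and Dbp were the closest pair of the injected rats, r = 0.86 (8 rats, exact permutation p = 0.00347, adjusted 0.0521), against 0.30 in the untreated rats (exact permutation p = 0.362). The difference between these cohort values was not tested. Within the untreated groups r was 0.63 in lean and -0.057 in obese rats. When obese rat 7 was left out of the 20, Bhlhe41 passed with Dbp (r = 0.77, adjusted permutation p = 0.0060). It then also passed with Nr1d2 (r = 0.71, adjusted permutation p = 0.0097). In the injected rats alone, 0 of the 15 pairs passed after adjustment, and 1 had an unadjusted exact p under 0.05.

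The 6 pairs depended on single rats to unequal degrees. Arntl with Dbp, Arntl with Wee1 and Nr1d2 with Dbp passed whichever of the 20 rats was left out. Without lean rat 6, these 3 pairs alone passed. Without lean control rat 13, 4 pairs passed, these 3 and Nr1d2 with Wee1.

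**Figure D4:**
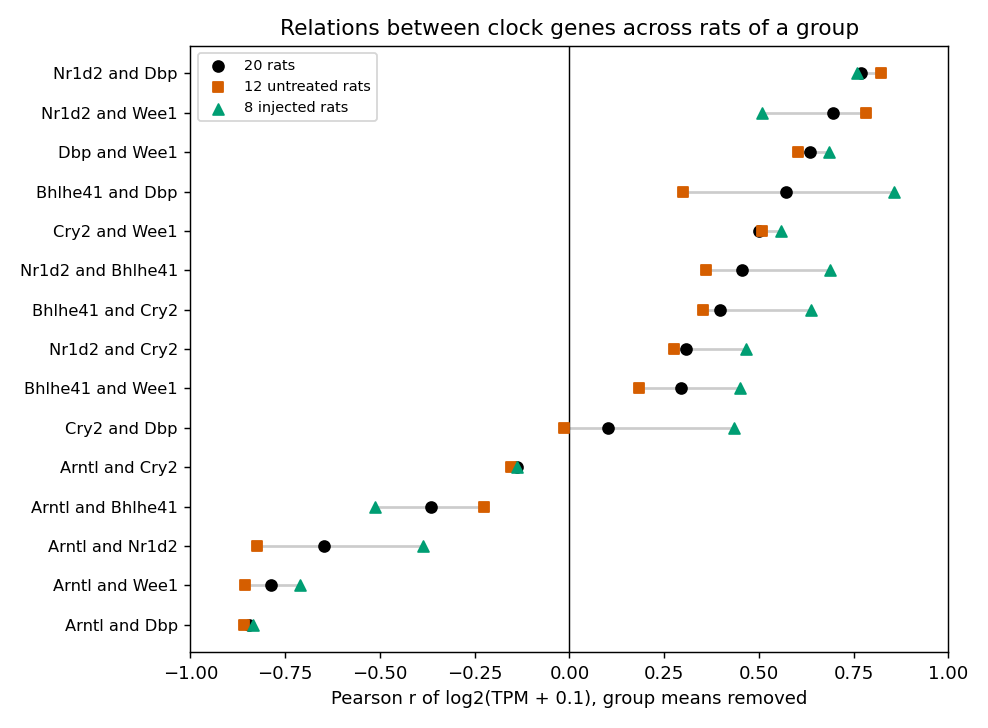
Pearson r of the deviations of log2(TPM + 0.1) from group means for the 15 pairs of clock genes (horizontal axis), over 20 rats, over the 12 untreated and over the 8 injected rats. Arntl with Dbp lies between -0.86 and -0.83 in all 3 sets, whereas Arntl with Nr1d2 runs from -0.83 in untreated to -0.39 in injected rats.

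The relation can also be read as a ratio of an output to Arntl in each rat. The ratio of Dbp to Arntl ran from 25.2 to 92.8 in lean rats (median 60.2), from 26.9 to 122.4 in obese rats (74.7), from 10.7 to 87.0 in lean control rats (20.8) and from 94.9 to 221.1 in obese + TT rats (138.5). All obese + TT rats exceeded all lean control rats, and rat 13, at 87.0, was the highest of the latter. The ratio of Nr1d2 to Arntl ran from 7.97 to 31.5 in lean control and from 43.3 to 69.5 in obese + TT rats, against 9.89 to 26.9 in lean and 10.1 to 35.1 in obese rats. The ratio of Wee1 to Arntl ran from 1.61 to 7.72 in lean control and from 11.1 to 19.6 in obese + TT rats. These ratios are descriptions of the levels above and were not tested.

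The genes most like Arntl were sought among all 12093 others with a mean of at least 1 TPM, by the same deviations over 20 rats. Dbp was the third most negative of them. Ahead of it were the identifiers ENSRNOG00000019383 (r = -0.89) and ENSRNOG00000047000 (r = -0.85), for which no symbol was at hand, and Nat8f5 came next (r = -0.82). The most positive were Zfp385a, a zinc finger gene (r = 0.79), ENSRNOG00000013408 (r = 0.73) and Cldn1, a tight junction claudin (r = 0.72). The median absolute r of Arntl to all of these genes was 0.186. Seen from Dbp, Arntl was the most negative of all, and Cldn1 was also negative (r = -0.73), as were Slc29a4, a monoamine transporter (r = -0.66), Zfp385a (r = -0.65) and Id2, an inhibitor of basic helix-loop-helix factors (r = -0.62). The named genes most positive to Dbp were Clec2g (r = 0.82), Nat8f5, Cops7a, a subunit of the COP9 signalosome, Flot2, a flotillin, and Bckdha, of branched-chain amino acid breakdown, the last 4 between 0.79 and 0.80. Group means were removed, but rats share tissue makeup and unknown read depth, so these values describe likeness and carry no test.

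Across the cohorts, injected rats had more Nr1d2 than untreated rats of the same genotype. Lean control exceeded lean rats by 0.56 on the log2 scale (adjusted p of limma 1.8e-04), and obese + TT exceeded obese rats by 0.92 (adjusted p 3.3e-05), without overlap in either. Against these stood 58.2% and 58.1% of all genes called in the same comparisons (44.8% and 45.8% without overlap, 34% and 34.1% as higher), and the members' calls are to be read against that share. Obese + TT rats also exceeded obese rats without overlap in Bhlhe41 (0.98, adjusted p 7.1e-05), Cry2 (0.59, adjusted p 3.6e-05) and Dbp (0.64, adjusted p 0.00512). In Arntl (-0.41, adjusted p 0.191) and Wee1 (0.13, adjusted p 0.447) they overlapped, and the sign of Wee1 turned with scaling. In lean control against lean rats Arntl was 0.89 higher (adjusted p 0.0279), but the groups overlapped and the exact permutation p was 0.0571. Of 10 fits that each left out 1 rat, 6 kept this call of Arntl. The other 4 genes were not called. The median of all genes was itself shifted by 0.24 and 0.25 on the log2 scale, and by 0.04 and 0.03 after rescaling by median ratio, under which every one of these differences was lower. Nr1d2 was then 0.35 higher in lean control than in lean rats (adjusted p 5.9e-04) and 0.70 higher in obese + TT than in obese rats (adjusted p 8.3e-05). In obese + TT rats Bhlhe41 was then 0.76, Cry2 0.37 and Dbp 0.42 higher (adjusted p 1.4e-04, 3.1e-04 and 0.0362), and Arntl in lean control rats was 0.69 higher (adjusted p 0.0955). Wee1, at -0.34 (adjusted p 0.0596) before that rescaling, was at -0.55 after it (adjusted p 0.00386).

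Markers of some other cell types also differed between the cohorts. The summed TPM of the fibroblast markers with an identifier (2 of 5) was 80.9 to 115.1 in untreated and 7.35 to 15.3 in injected rats. That of the mural cell markers (3 of 5) was 142.2 to 244.0 in untreated, 13.7 to 21.7 in lean control and 9.70 to 11.7 in obese + TT rats. The mural markers differed unequally. In lean control against lean rats Myh11 was at -0.14 on the log2 scale, Tagln at -3.96 and Rgs5 at -4.47. In obese + TT against obese rats they were at -1.07, -5.09 and -4.59. The summed TPM of the immune markers (2 of 6) was 415 to 546 in untreated and 95.2 to 284 in injected rats. The astrocyte marker with an identifier (1 of 6), Gja1, read 4.79 to 9.12 TPM in untreated and 1.21 to 3.39 TPM in injected rats. The summed TPM of the ependyma markers (2 of 5) overlapped, with 198.5 to 278.4 in untreated and 204.6 to 243.1 in injected rats. None of these markers was at 0 throughout. Cohort, injection and the makeup of the samples cannot be told apart, and their part in the levels of the clock genes was not tested.

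Of 33 other genes of the clock on a list, 3 had an identifier paired with a symbol, Usp2, Fbxl21 and Ypel2. The others, the Per and Clock genes among them, were not analysed here. None of the 3 was called by limma after adjustment in either main comparison, and 2 in the untreated (Fbxl21 and Ypel2) and 1 in the injected cohort (Usp2) had an unadjusted p under 0.05, where 9.66% and 7.43% of all genes had one. Usp2, a deubiquitinase that acts on clock proteins, read 53.76, 51.28, 53.17 and 51.00 TPM in lean control and 60.24, 59.02, 58.74 and 68.61 TPM in obese + TT rats. The groups did not overlap, as in 4.02% of all genes (0.23 on the log2 scale, adjusted p of limma 0.510), and in untreated obese rats the log2 difference was -0.16 (adjusted p 0.740). Fbxl21, of the ubiquitin ligase that marks cryptochromes, had a median of 6.925 TPM in lean (5.61 to 11.31) and of 4.43 TPM in obese rats (3.96 to 5.71). The log2 difference was -0.67 (adjusted p of limma 0.258) in the untreated and -0.048 in the injected cohort. Ypel2 had a median of 2.65 TPM in the lean group and of 3.615 TPM in the obese group (a log2 difference of 0.49, adjusted p of limma 0.284), and -0.054 in the injected cohort. Their deviations ran weakly with Arntl (r = -0.30 for Usp2, -0.23 for Fbxl21 and 0.15 for Ypel2).

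Genes that answer cues able to shift a clock were listed as well. None of those with an identifier was called by limma after adjustment in either main comparison. Of the temperature genes, 6 of 8 had an identifier, and their signs were mixed. In untreated obese rats Cirbp, which encodes a cold-inducible RNA-binding protein, was at -0.52 on the log2 scale, Hsp90aa1 at -0.20 and Rbm3 at -0.18, and the heat shock genes Dnajb1, Hspa8 and Hsph1 were at 0.35, 0.27 and 0.090 (adjusted p of limma 0.225 to 0.883 for the 6). In obese + TT rats Cirbp was at 0.43, Rbm3 at 0.38 and Hspa8 at 0.036, and Hsp90aa1, Hsph1 and Dnajb1 were between -0.28 and -0.23 (adjusted p 0.668 to 0.952). Of the genes induced by glucocorticoids, 4 of 8 had an identifier, and all 4 had negative values in both cohorts. In untreated obese rats the metallothionein genes Mt2A and Mt1 were at -0.78 and -0.50, the kinase gene Sgk1 at -0.48 and Cdkn1a, a cell cycle inhibitor, at -0.36 (adjusted p of limma 0.295 to 0.459). In obese + TT rats Mt2A was at -0.94, Mt1 at -0.34, Cdkn1a at -0.19 and Sgk1 at -0.070 (adjusted p 0.622 to 0.933). Of the listed cell cycle genes, 1 of 9 had an identifier, Cdc25b. It read 0.75 to 1.29 TPM in lean, 1.31 to 1.84 in obese, 1.04 to 1.72 in lean control and 1.81 to 2.79 in obese + TT rats. The groups overlapped in neither cohort, as in 0.54% and 4.02% of all genes. The log2 differences were 0.45 and 0.85 (adjusted p of limma 0.319 and 0.484), and r with Arntl was -0.012. Over the 20 rats, the deviations of the temperature genes had r between -0.46 (Rbm3) and 0.42 (Hsp90aa1) with Arntl, and those of the glucocorticoid genes between -0.20 (Mt1) and 0.28 (Cdkn1a). The part of these cues in the clock genes was not tested.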

How the data were processed

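RNA of the choroid plexus of 20 rats was sequenced, 1 library per rat. The authors aligned and quantified the reads (the submitters' processing notes name STAR 2.7.9a, RSEM 1.3.3 and Rnor_6.0) and deposited TPM and FPKM for 32883 genes per rat. FPKM values entered no comparison. Counts were not analysed here, so depth is unknown and no interval for counting error was given. As the files hold no counts, limma 3.58.1 (R 4.3.3) was run on log2(TPM + 0.1), which understates changes of low genes, for genes whose mean reached 0.1 TPM, with eBayes trend and Benjamini-Hochberg adjustment over all genes tested (called at 0.05). The test was checked on simulated data. Single genes had exact two-sided permutation tests of mean log2(TPM + 0.1). Pair relations used 100000 permutations within groups (518400 and 576, all of them, for the cohorts alone). Python 3.11.15 was used for these and the plots.

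Symbols came from the study's supplementary tables (2616 of 32883 identifiers). The members and lists were chosen with earlier results of these data known. Named genes were the 6 members, other clock genes with an unadjusted p under 0.05 or groups without overlap, and the 5 genes most positively and most negatively related to Arntl and to Dbp (identifiers without a symbol only in part). Of the cue and marker lists, which values are printed was settled after they were seen. Rats were labelled as separate animals, and no duplicate library was found. Alternatives were another pseudocount, filter, scaling, a robust fit, a fit of all rats and leaving out each rat.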

Additional observations from a re-analysis of the deposited data

Results flagged for a closer look

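Wee1 in lean control rat 13 stood apart from its group, at 12.04 TPM against values between 7.87 and 8.24 TPM in rats 14, 15 and 16. Among 4 values, the gap to the nearest other rat was 0.911 of the whole range, above Dixon's limit. This was the only such value in 24 combinations of gene and group, where chance alone gives about 1 in 20. Rat 13 was also the lean control rat with the least Arntl (1.56 TPM) and the most Dbp (135.77 TPM).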

How the results depend on the processing

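No paired analysis was possible because each rat carries a number of its own and no number is shared between groups. Across all genes, 0 were called in the untreated comparison, 1 after rescaling by median ratio, 3 in a fit of all 20 rats, and 0 to 1 when 1 rat was left out. In the injected comparison 0 were called, 2 after rescaling by median ratio, 6 in the fit of all 20 rats, and 0 to 25 when 1 rat was left out, the 25 without lean control rat 13. The difference between contrasts had 0 calls, 1 at a minimum of 1 TPM, 2 after rescaling by median ratio, 10 without Ttr, 1 in a robust fit, and 0 to 14 when 1 rat was left out, the 14 without rat 13. Of the 15 pairs 6 passed, 0 in the injected rats alone, and 3 to 7 when 1 rat was left out. Rescaling by median ratio turned the sign of Bhlhe41 (-0.074) and Cry2 (-0.060) in lean control against lean rats, of Wee1 in obese + TT against obese rats (-0.086, and -0.021 without Ttr), and of the pairs Arntl with Cry2 (r = 0.028) and Cry2 with Dbp (r = -0.091, -0.059 without Ttr and -0.013 in untreated rats). Leaving out 1 rat turned the sign of Nr1d2 in untreated rats (log2 -0.068 to 0.047), of Bhlhe41 (-0.025 to 0.26) and Dbp (-0.45 to 0.033) in lean control against lean rats, and of the pairs Arntl with Cry2 (r = -0.22 to 0.020) and Cry2 with Dbp (-0.051 to 0.25). The cause of these changes was not tested. In obese + TT against lean control rats, leaving out 1 rat gave -1.83 to -1.29 for Arntl, 0.71 to 1.19 for Dbp and 0.59 to 0.80 for Wee1, each called only without rat 13. Under all of the alternatives run, the log2 fold changes of the 6 genes in the injected comparison, and the differences between contrasts, kept their sign. Read depth is unknown, so the counting error of the values cannot be given, and 4 rats a group allow no exact p below 0.0286.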
